A study of Homo sapiens with 12 samples.

Results

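The mitochondrial ribosomal proteins described here are the products of 76 human nuclear genes whose symbols begin with MRPL, for the large subunit, or MRPS, for the small subunit, followed by a digit. Of these genes 48 belonged to the large and 28 to the small subunit by name, and they stood among 9621 genes that had a detected probe. They were read by 110 of the 47230 probes of an Illumina HumanHT-12 v4 BeadChip, an array on which each transcript is read as the fluorescence of a short probe. A further 3 probes of pseudogenes and 2 probes of antisense RNAs named after members were left out. The RNA came from HLY-1 (HLY) and SUDHL2, both human diffuse large B-cell lymphoma (DLBCL) lines, cultured at 1% oxygen (hypoxia) or 21% oxygen (normoxia). No gene was altered and no drug was given in any group, and each group held 3 arrays labelled as replicates. Each line is a single established line, which the study classes as OxPhos for HLY and non-OxPhos for SUDHL2, and the length of the hypoxia before RNA was taken for the arrays is not given in the sources used here.

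The mitochondrial ribosome, or mitoribosome, translates the few messenger RNAs of mitochondrial DNA, all of which encode core subunits of the respiratory chain and of ATP synthase. Its RNAs are made inside the mitochondrion, whereas every one of its proteins is encoded in the nucleus, made in the cytosol and imported. Part of the proteins descend from bacterial ribosomal proteins and the others were added in mitochondria. The small subunit reads the messenger RNA at the decoding centre. The large subunit joins the amino acids and sits at the inner membrane with its exit tunnel.

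The arrays did not group by line label, and this bears on every value below. Median probe intensities were 111 to 149 per array, and each array detected between 12322 and 14925 probes (detection p under 0.01). CD79B, a part of the B cell receptor, was detected on 3 of 3 HLY normoxia and 3 of 3 SUDHL2 hypoxia arrays, and on 0 of 3 HLY hypoxia and 0 of 3 SUDHL2 normoxia arrays. EPCAM, an epithelial adhesion protein, had that same detection pattern, and PECAM1, an endothelial one, had the reverse. Of 12 B cell markers 10 were tested, and 9 of them differed between hypoxia and normoxia under the HLY label and 10 under the SUDHL2 label. Of all genes, 65.5% and 66.2% did so. They did not share a direction, with 3 higher and 6 lower in HLY hypoxia and 6 higher and 4 lower in SUDHL2 hypoxia. HLA-DRA and IRF4, for example, ran opposite to CD79B. CD74 and POU2AF1 were detected on all 12 arrays, while the T cell marker CD2 was detected on 4 of 12 arrays and the myeloid marker LYZ on 5, each the only tested gene of its list. Groups were kept as labelled. Whether labels of groups were exchanged was not tested. With line labels exchanged at a single oxygen level, each hypoxia response printed below under a label would combine line and oxygen. The difference of these responses would be a difference between lines, and the average response would remain hypoxia against normoxia over both lines. The comparisons across labels printed below would then be hypoxia against normoxia within a line. Within each label, a difference with oxygen cannot be told apart from the difference that goes with these markers, and what part either had in the values below was not tested.

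All 76 members were read above background on all 12 arrays by the brightest probe of the gene, which stood for it. Values are given as normalized log2 intensity, and a difference of 1 is a 2-fold change. A gene was called where its adjusted p was under 0.05 in limma's moderated test, with Benjamini-Hochberg adjustment over all 9621 genes. Across the 4 groups the means of a member spanned a median of 0.76, against 0.88 for all genes tested and 0.33 for 76 cytosolic ribosomal proteins. The span exceeded 1 in 18 members, or 23.7%, and in 43.3% of all genes. The median spread between the 3 arrays of a group was 0.153 for members (SD).

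**Figure D1:**
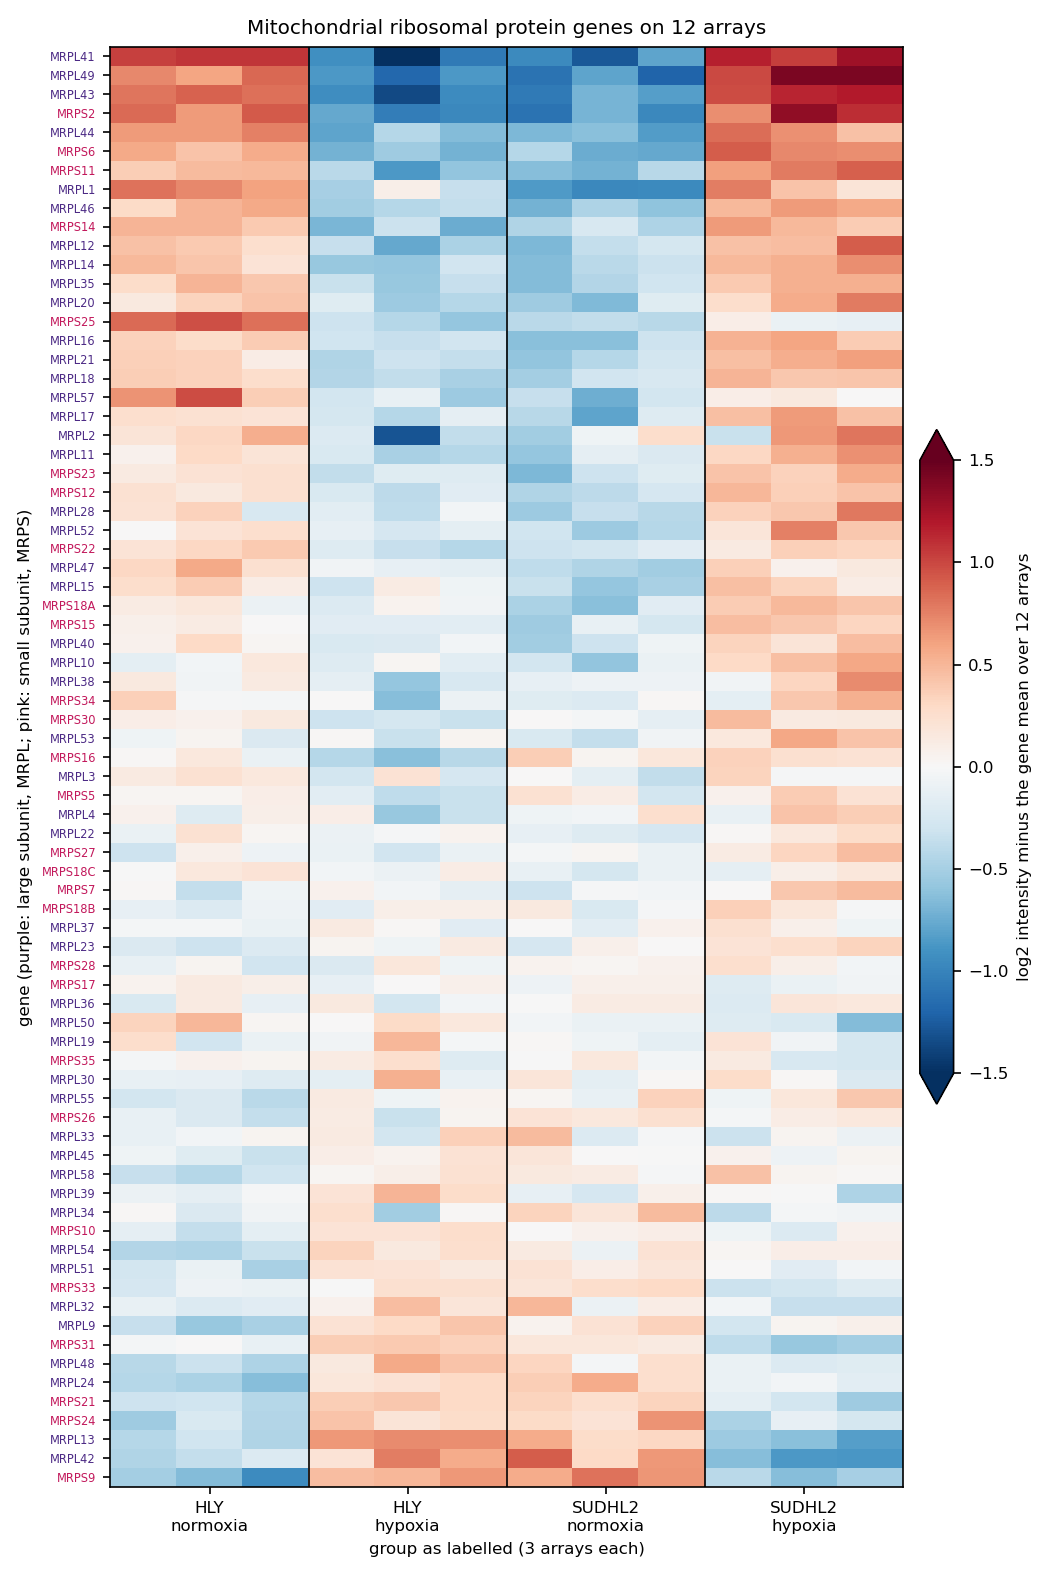
Normalized log2 intensity of the 76 members (rows) on the 12 arrays (columns, 3 per group as labelled), each minus the mean of the gene over 12 arrays. Rows run from the largest to the smallest difference of the hypoxia response, SUDHL2 minus HLY, and the colours of HLY normoxia resemble those of SUDHL2 hypoxia, as those of HLY hypoxia resemble SUDHL2 normoxia.

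Over the members, the median absolute difference between an HLY hypoxia and a SUDHL2 normoxia array was 0.194, and between an HLY normoxia and a SUDHL2 hypoxia array 0.247. Arrays of a single group differed by 0.119 to 0.182. Hypoxia and normoxia arrays of a single label were farther apart, at 0.432 for HLY and 0.530 for SUDHL2. In 41 members, or 53.9%, the means of HLY hypoxia and SUDHL2 normoxia were the lowest of the 4, against 38.9% of all genes, and in 17 members, or 22.4%, they were the highest, against 38.5% of all genes.

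The first question was how the mitoribosome genes differed between 1% and 21% oxygen on the arrays labelled HLY. Of the members, 28 were called lower and 17 higher in hypoxia, and 31 did not pass the test. The balance turned to 11 lower and 15 higher when each array was centred on its median instead of being quantile-normalized. That median was taken over all 47230 probes, of which each array detected between 12322 and 14925. The share of all genes called was not taken with median centring, so its counts have no background. The 45 called with quantile normalization made up 59.2% of the members, against a background of 65.5% of all genes called in either direction. This share was not above that of the array as a whole. By direction, 36.8% of members were lower against 32.4% of all genes, and 22.4% were higher against 33.1%. The median difference of the members was -0.19 on the log2 scale beside -0.01 for all genes, and with median centring it turned to 0.13 beside 0.29 for all genes, so that it stayed 0.16 below theirs. The arrays did not overlap between hypoxia and normoxia in 33 members that were lower and 19 that were higher, against 35.8% and 36.1% of all genes (71.9% in either direction). In RNA of a whole culture, less transcript per cell and fewer cells with the transcript cannot be told apart.

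On the SUDHL2 arrays the balance was the other way. Hypoxia values were called higher in 39 members and lower in 11, and 26 did not pass the test. The share called was 65.8% against 66.2% of all genes, with 51.3% higher against 33.3% of all genes and 14.5% lower against 33.0%. The median difference of the members was 0.34 on the log2 scale beside 0.02 for all genes. The arrays did not overlap in 39 members that were higher and 12 that were lower, against 33.5% and 33.4% of all genes (66.9% in either direction). With median centring 29 were called higher and 4 lower, again with no share of all genes taken.

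No member was called in the same direction under both labels, where 0.561% of all genes were higher and 0.811% lower under both. Such genes were few on the whole array, so their absence is not particular to the members. Of the 76, 26 were called lower in HLY and higher in SUDHL2 hypoxia (34.2%, against 25.6% of all genes), and 10 were called higher in HLY and lower in SUDHL2 (13.2%, against 26.3%). A further 9 were called under the HLY label only, 14 under the SUDHL2 label only, and 17 under neither (22.4%, against 21.5% of all genes). The difference of the responses, SUDHL2 minus HLY, was called above 0 in 41 members and below 0 in 14, or 72.4% of members against a background of 73.8% of all genes, of which 37.1% were above and 36.6% below 0. With median centring 24 members were called above 0 and 14 below, with no share of all genes taken.

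**Figure D2:**
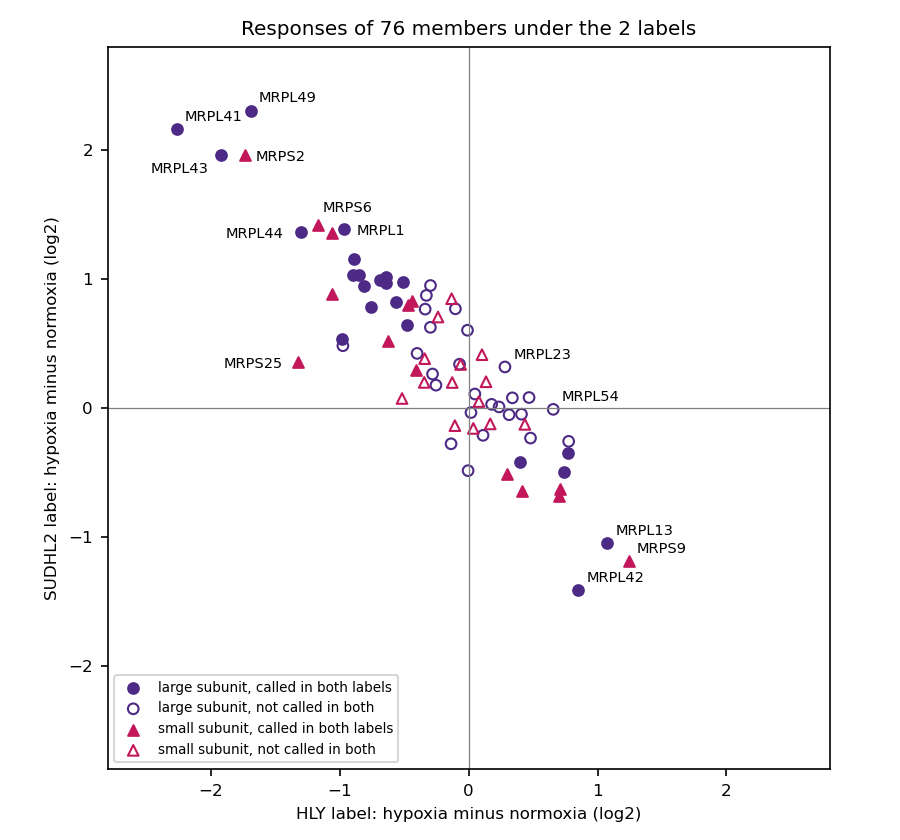
Hypoxia minus normoxia on the log2 scale for the 76 members, HLY label on the horizontal and SUDHL2 label on the vertical axis, with circles for the large and triangles for the small subunit and filled symbols for members called under both labels. The 26 members called lower in HLY and higher in SUDHL2 lie at the upper left and the 10 called the other way at the lower right. No filled symbol lies in the other corners, where 0.561% (both higher) and 0.811% (both lower) of all genes were called.

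The 4 members with the largest difference of responses were MRPL41, MRPL43, MRPL49 and MRPS2. MRPL41, a protein with no bacterial counterpart that is also known to bind the survival protein BCL2, read 11.67, 11.72 and 11.72 on the HLY normoxia arrays and 9.73, 9.002 and 9.58 on the HLY hypoxia arrays. On the SUDHL2 arrays it read 9.69, 9.37 and 9.85 in normoxia and 11.81, 11.68 and 11.91 in hypoxia. The high arrays were thus HLY normoxia and SUDHL2 hypoxia, and no array of a high group overlapped one of a low group. The difference was -2.26 ± 0.18 (SE, n = 3 against 3) in HLY, 4.81-fold lower (adjusted p 5.02e-08), and 2.16 ± 0.18 in SUDHL2, 4.47-fold higher (adjusted p 8.41e-08). An exact permutation test of 3 arrays against 3 cannot go below p = 0.1, so the fit across all genes carries the test.

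MRPL43, another protein of mitochondria only, shares a fold with MRPS25 of the small subunit. It read 11.60, 11.68 and 11.62 in HLY normoxia and 9.86, 9.44 and 9.85 in HLY hypoxia, and 9.73, 10.10 and 9.96 in SUDHL2 normoxia and 11.77, 11.94 and 11.98 in SUDHL2 hypoxia. The same groups were high and low as for MRPL41, again with no overlap. Its differences were -1.92 ± 0.14 in HLY (adjusted p 3.19e-08) and 1.97 ± 0.14 in SUDHL2 (adjusted p 2.41e-08).

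MRPL49, found only in mitochondria, read 9.42, 9.29 and 9.55 in HLY normoxia, 7.84, 7.52 and 7.83 in HLY hypoxia, 7.58, 7.90 and 7.49 in SUDHL2 normoxia and 9.68, 10.11 and 10.10 in SUDHL2 hypoxia. It had the largest increase of any member in SUDHL2 hypoxia, 2.31 ± 0.16 or 4.95-fold (adjusted p 1.26e-08), and in HLY it differed by -1.69 ± 0.16 (adjusted p 3.85e-07). Its high groups also differed from each other, as given with the comparisons across labels. MRPS2, the counterpart of bacterial S2, led the small subunit. It read 10.14, 9.93 and 10.20 in HLY normoxia, 8.52, 8.24 and 8.32 in HLY hypoxia, 8.18, 8.59 and 8.32 in SUDHL2 normoxia and 9.98, 10.61 and 10.39 in SUDHL2 hypoxia, with differences of -1.73 ± 0.17 and 1.96 ± 0.17.

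The promoters of these 4 genes are printed because they carry the widest changes, next to those of MRPS9 and MRPL42, which moved in the opposite direction under both labels. Each stretch runs from 90 bases before to 30 bases after the RefSeq start of transcription (GRCh38.p14), written 5′ to 3′ on the strand of the gene. Capitals mark matches to ACGTG, the core that hypoxia-inducible factors bind, to CCGGAAG, an ETS core of the kind GABP binds, or to AAGATGGCG, a YY1 motif, on either strand. MRPL41 is at chr9:137551789-137551908 (+ strand), MRPL43 at chr10:100987468-100987587 (- strand), MRPL49 at chr11:65122093-65122212 (+ strand), MRPS2 at chr9:135499875-135499994 (+ strand), MRPS9 at chr2:105037979-105038098 (+ strand) and MRPL42 at chr12:93467424-93467543 (+ strand).
MRPL41: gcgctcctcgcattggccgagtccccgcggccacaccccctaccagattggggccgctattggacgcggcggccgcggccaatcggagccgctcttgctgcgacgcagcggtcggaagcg
MRPL43: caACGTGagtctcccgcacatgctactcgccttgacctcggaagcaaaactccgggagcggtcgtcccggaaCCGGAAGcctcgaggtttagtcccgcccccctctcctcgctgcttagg
MRPL49: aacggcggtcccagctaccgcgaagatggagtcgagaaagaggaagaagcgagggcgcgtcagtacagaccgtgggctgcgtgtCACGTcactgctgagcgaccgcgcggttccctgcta
MRPS2: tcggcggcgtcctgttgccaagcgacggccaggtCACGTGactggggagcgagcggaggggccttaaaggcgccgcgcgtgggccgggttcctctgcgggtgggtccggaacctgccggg
MRPS9: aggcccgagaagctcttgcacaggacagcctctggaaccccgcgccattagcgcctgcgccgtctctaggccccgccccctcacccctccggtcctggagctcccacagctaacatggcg
MRPL42: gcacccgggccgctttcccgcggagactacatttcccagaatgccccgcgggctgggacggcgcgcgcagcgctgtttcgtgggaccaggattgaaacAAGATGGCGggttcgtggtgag
MRPS2 holds CACGTG, in which ACGTG is read on both strands, at 56 bases before its start, and MRPL49 holds the core on the complement, 6 bases before its start. In MRPL43 it lies 88 bases and the ETS core 18 bases before the start. The printed stretches of MRPL41 and MRPS9 hold none of the motifs searched.

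The whole windows from 250 bases before to 50 bases after the start were also searched on both strands, for the 68 members that matched the RefSeq table by symbol (84 windows, 41 large and 27 small subunit genes). CCGGAAG stood in 38.1% of the member windows against 10.3% of all 35116 windows, and AAGATGGCG in 15.5% against 1.75%. The ETS core GGAAGTG stood in 16.7% against 11.2%, the NRF1 core GCGCATGCG in 3.57% against 1.92%, and ACGTG in 29.8% against 21.4%. CCGGAAG and GGAAGTG can overlap, and a match is a description of letters, not a bound site. The counts that follow stand against 33.3% of all genes called higher in SUDHL2, and 33.1% called higher and 32.4% lower in HLY. In SUDHL2, 14 of 29 members with CCGGAAG and 20 of 39 without it were called higher, and in HLY 9 of 29 and 16 of 39 were called lower. For ACGTG, 10 of 24 members with it and 24 of 44 without it were called higher in SUDHL2, and the medians were 0.15 and 0.37. In HLY, 6 of the 24 were called higher and 7 lower, against 10 and 18 of the 44. For AAGATGGCG, 4 of 13 members with it were called higher and 2 lower in HLY, against 12 and 23 of 55 without it. In SUDHL2, 6 of the 13 and 28 of the 55 were called higher. These counts were not tested.

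The 4 genes were followed by others in the same direction. MRPS6, the counterpart of bacterial S6, read 11.95 to 12.09 in HLY normoxia and 12.21 to 12.43 in SUDHL2 hypoxia, but no more than 11.09 on any array of the other 2 groups. Its differences were -1.17 ± 0.13 and 1.42 ± 0.13. MRPL12, which forms the flexible stalk that recruits translation factors and also binds the mitochondrial RNA polymerase, differed by -0.89 ± 0.16 and 1.03 ± 0.16. The proteins of the stalk base did so less far, with MRPL11 at -0.56 ± 0.15 and 0.82 ± 0.15 and MRPL10 at -0.10 ± 0.15, which did not pass the test in HLY, and 0.77 ± 0.15. MRPS12, at the decoding centre, differed by -0.47 ± 0.12 and 0.80 ± 0.12. All of these SUDHL2 differences were called, and so were those of MRPS6, MRPL12, MRPL11 and MRPS12 in HLY. With median centring the HLY calls of MRPL11 (-0.26, adjusted p 0.363) and MRPS12 (-0.12, adjusted p 0.688) were lost.

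MRPL46 and MRPS11 were the only members whose starts lay within 100 kb of each other. They are read away from each other from starts 320 bases apart on chromosome 15, MRPL46 on the minus and MRPS11 on the plus strand, so that a large and a small subunit gene share the region between them. Their stretches, at chr15:88467359-88467478 (- strand) and chr15:88467618-88467737 (+ strand), are printed for that arrangement.
MRPL46: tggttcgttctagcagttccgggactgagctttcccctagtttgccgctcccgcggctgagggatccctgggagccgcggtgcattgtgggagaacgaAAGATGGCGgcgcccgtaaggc
MRPS11: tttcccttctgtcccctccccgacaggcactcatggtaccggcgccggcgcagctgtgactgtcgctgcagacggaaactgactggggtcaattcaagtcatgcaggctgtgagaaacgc
The capitals in MRPL46 mark AAGATGGCG at position 9 after the start. In HLY hypoxia MRPL46 read 9.83, 9.92 and 9.99 against 10.63, 10.85 and 10.91 in normoxia, and MRPS11 10.24, 9.78 and 10.05 against 11.01, 11.12 and 11.12. Their differences were -0.89 ± 0.12 and -1.06 ± 0.14 in HLY, and 1.16 ± 0.12 and 1.35 ± 0.14 in SUDHL2, all of them called. This gene pair was chosen by position and is a description.

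**Figure D3:**
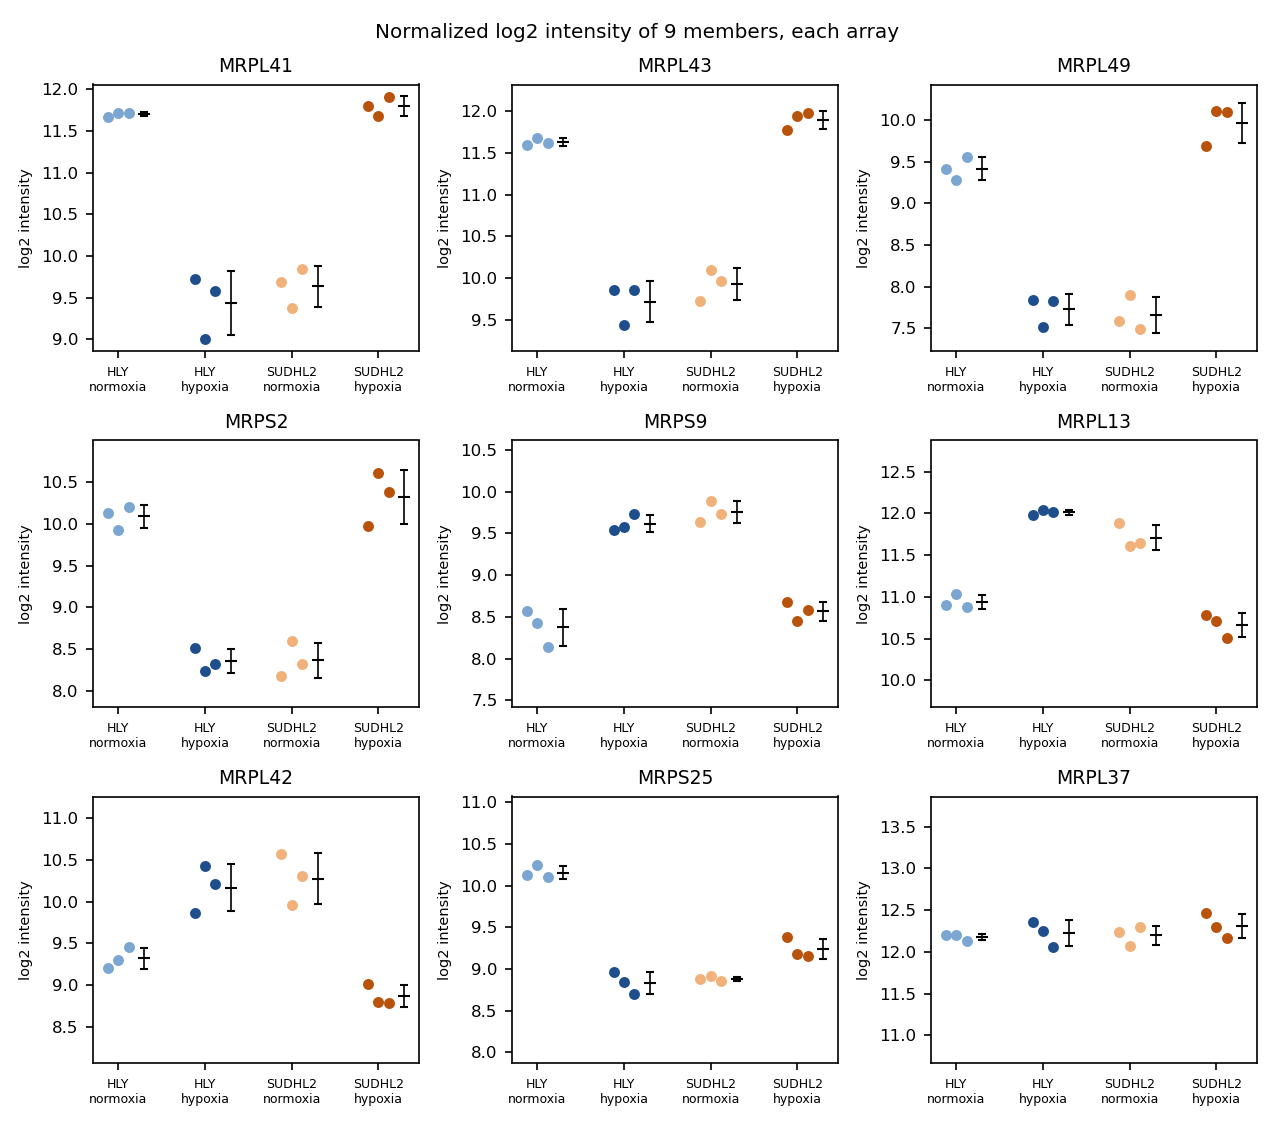
Normalized log2 intensity of 9 members on each array, by group as labelled, with points for single arrays and bars for the mean ± SD of 3 arrays; every vertical axis spans the same log2 range but starts at a different level. MRPL41, MRPL43, MRPL49 and MRPS2 are high in HLY normoxia and SUDHL2 hypoxia, MRPS9, MRPL13 and MRPL42 are low there, MRPS25 is highest in HLY normoxia, and MRPL37 is level.

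A smaller set ran the other way, and it was not made up of either subunit alone: of the 10 members called higher in HLY and lower in SUDHL2 hypoxia, 5 were of the large and 5 of the small subunit. MRPS9, the counterpart of bacterial S9, a protein that touches transfer RNA in the bacterial ribosome, read 8.57, 8.42 and 8.14 in HLY normoxia and 9.55, 9.57 and 9.73 in HLY hypoxia. In SUDHL2 it read 9.63, 9.90 and 9.74 in normoxia and 8.68, 8.45 and 8.58 in hypoxia, so that here the HLY hypoxia and SUDHL2 normoxia arrays were the high ones. Its differences were 1.24 ± 0.14 (adjusted p 2.09e-06) and -1.19 ± 0.14 (adjusted p 3.31e-06). MRPL13, the counterpart of bacterial L13, differed by 1.08 ± 0.12 and -1.05 ± 0.12, and MRPL42, a protein of mitochondria only, by 0.85 ± 0.17 and -1.41 ± 0.17.

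The next largest increases in HLY hypoxia were those of MRPL9 at 0.78 ± 0.13 and MRPL48 at 0.77 ± 0.14. MRPS24 differed by 0.70 ± 0.15 there. In SUDHL2, MRPS24 fell by 0.68 and MRPL48 by 0.35 on the log2 scale, whereas MRPL9 at -0.26 ± 0.13 did not pass the test (adjusted p 0.105). MRPS31, a mitochondria-specific protein of the small subunit, differed by 0.41 ± 0.11 in HLY and -0.64 ± 0.11 in SUDHL2, both called. The MRPL48 call in SUDHL2 (adjusted p 0.0397) was lost with median centring (adjusted p 0.343), the deposited scores (0.0532), no detection filter (0.0523), the replicate block (0.0606) and each label fitted alone (0.0719), and without several single arrays. That of MRPS31 was lost with median centring (adjusted p 0.0631).

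MRPS25 departed from this pattern. It read 10.12, 10.24 and 10.10 in HLY normoxia but 8.96, 8.85 and 8.70 in HLY hypoxia, 8.88, 8.91 and 8.86 in SUDHL2 normoxia and 9.38, 9.18 and 9.16 in SUDHL2 hypoxia. Only the HLY normoxia arrays were high, and the SUDHL2 hypoxia arrays lay between them and the rest without overlap. The decrease in HLY, -1.32 ± 0.12 (adjusted p 2.22e-07), stood beside an increase in SUDHL2 of 0.36 ± 0.12 (adjusted p 0.0167). The latter was lost with median centring (adjusted p 0.447) and with the deposited scores (adjusted p 0.133). At the other extreme, MRPL37, MRPL36 and MRPS35 had the smallest spans of group means, and none of their differences passed the test. MRPL37 differed by 0.05 ± 0.13 in HLY and 0.11 ± 0.13 in SUDHL2, MRPL36 by 0.02 ± 0.15 and -0.03 ± 0.15, and MRPS35 by 0.04 ± 0.15 and -0.16 ± 0.15. For MRPL37 the 95% intervals ran from -0.22 to 0.32 and from -0.16 to 0.38.

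Large and small subunit were then set side by side over the 4 groups. In HLY, 18 of 48 large subunit genes were called lower and 11 higher (median -0.27), and 10 of 28 small subunit genes lower and 6 higher (median -0.13). In SUDHL2, 26 of 48 large and 13 of 28 small subunit genes were called higher, and 6 and 5 lower, with medians of 0.45 and 0.25. The shares called higher in SUDHL2 were 54.2% and 46.4%, against 33.3% of all genes, and those called lower in HLY 37.5% and 35.7%, near the 32.4% of all genes. Those called higher in HLY were 22.9% and 21.4%, against 33.1% of all genes, and those called lower in SUDHL2 12.5% and 17.9%, against 33.0%. No test was made between the subunits, since a score over chosen genes has no replicate beyond the arrays.

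As a level per array, the median over the genes of a subunit of the log2 intensity minus the mean of the gene was taken. The large subunit level was 0.0639, 0.218 and 0.0630 on the HLY normoxia arrays and -0.131, -0.169 and -0.120 on the HLY hypoxia arrays. It was -0.244, -0.194 and -0.101 in SUDHL2 normoxia and 0.221, 0.221 and 0.3002 in SUDHL2 hypoxia. Under each label hypoxia and normoxia did not overlap, and they were separated in opposite directions, whereas with median centring the HLY direction turned and both labels had hypoxia above normoxia (HLY group means of 0.0894 in hypoxia and 0.0112 in normoxia). With that centring the median HLY difference of all genes also rose, to 0.29. The median of all members was 0.13, still 0.16 below it. The small subunit level was 0.0291 ± 0.0422 in HLY normoxia, -0.150 ± 0.0295 in HLY hypoxia, -0.0485 ± 0.0240 in SUDHL2 normoxia and 0.173 ± 0.0416 in SUDHL2 hypoxia (mean ± SD, n = 3 arrays).

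Large minus small, the level difference was 0.0860 ± 0.0544 in HLY normoxia, 0.00973 ± 0.0177 in HLY hypoxia, 0.0745 ± 0.0487 in SUDHL2 hypoxia and -0.131 ± 0.0879 in SUDHL2 normoxia. In SUDHL2 normoxia all 3 arrays had the large subunit below the small, with differences of -0.191, -0.172 and -0.0303, and in SUDHL2 hypoxia and HLY normoxia all 3 had it above. These differences are small beside the changes of single members. With median centring the small subunit level was 0.0440 in HLY hypoxia and -0.0696 in HLY normoxia, so its HLY direction turned too, beside a median HLY difference of all genes of 0.29.

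**Figure D4:**
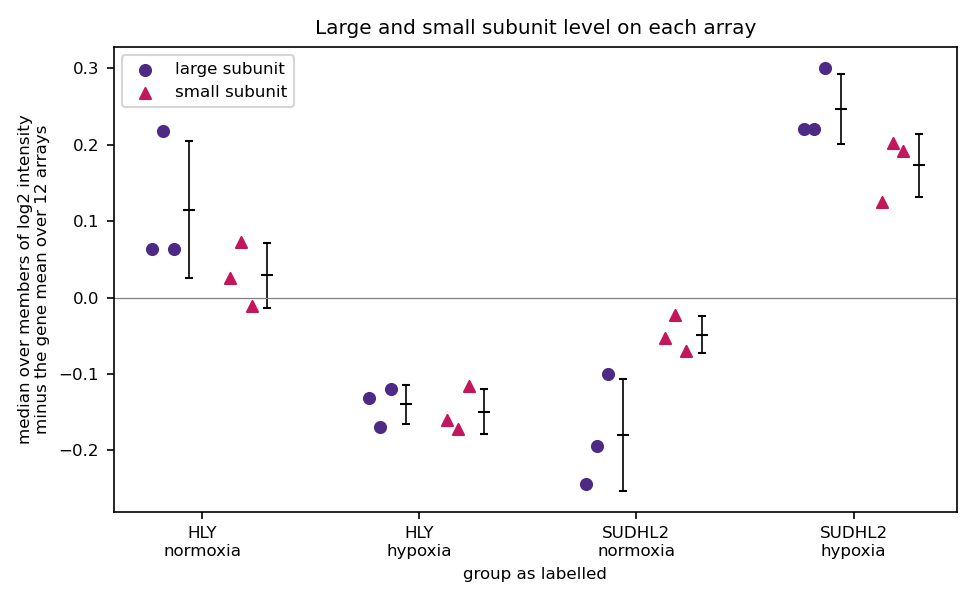
Level of the large (circles) and small (triangles) subunit on each array, as the median over its genes of log2 intensity minus the gene mean over 12 arrays, with bars for the mean ± SD of 3 arrays per group as labelled. Both levels are lowest in HLY hypoxia and SUDHL2 normoxia and highest in SUDHL2 hypoxia, although median centring reverses HLY, with hypoxia at 0.0894 (large) and 0.0440 (small) above normoxia at 0.0112 and -0.0696. With median centring the median HLY difference of all genes was 0.29 and that of all members 0.13.

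Some names do not match the place of the protein. MRPS30 and MRPS18A carry small subunit names but sit in the large subunit of the mammalian mitoribosome. MRPS30 differed by -0.40 ± 0.12 in HLY and 0.30 ± 0.12 in SUDHL2. Both were called, but both calls were lost with median centring (adjusted p 0.787 and 0.290), and the SUDHL2 call also with the replicate block (adjusted p 0.0559), with each label fitted alone (adjusted p 0.112) and without several single arrays. Counting MRPS30 and MRPS18A with the large subunit moved no subunit level by more than its spread. MRPS18A, MRPS18B and MRPS18C are paralogs, of which MRPS18C takes the place of bacterial S18. MRPS18A read 9.87, 9.91 and 9.65 in HLY normoxia, 9.54, 9.80 and 9.70 in HLY hypoxia, 9.27, 9.12 and 9.57 in SUDHL2 normoxia and 10.12, 10.23 and 10.16 in SUDHL2 hypoxia. The SUDHL2 hypoxia arrays were above all others, with a difference of 0.85 ± 0.14 (adjusted p 8.85e-05), while HLY at -0.13 ± 0.14 did not pass the test. MRPS18B (0.14 ± 0.14 and 0.20 ± 0.14) and MRPS18C (-0.13 ± 0.13 and 0.20 ± 0.13) passed it under neither label by their brightest probes. The other kept probe of MRPS18B, annotated to the same transcript record, was called under both, at -0.50 in HLY (adjusted p 0.0127) and 0.53 in SUDHL2 (adjusted p 0.00860), so the response of MRPS18B is uncertain.

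By descent, 46 members were listed as having a bacterial counterpart and 28 as found only in mitochondria, while MRPL55 and MRPL58 were in neither list. In HLY, 39.1% and 35.7% of them were called lower (32.4% of all genes) and 17.4% and 28.6% higher (33.1% of all genes). In SUDHL2, 52.2% and 53.6% were called higher (33.3% of all genes) and 15.2% and 14.3% lower (33.0% of all genes). No test was made between these sets. The medians were -0.25 and -0.22 in HLY, and 0.38 and 0.35 in SUDHL2.

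To see which members changed with oxygen regardless of label, the mean of both hypoxia groups was compared with the mean of both normoxia groups. Only 4 of 76 members (5.26%) were called, against a background of 9.54% of all genes, with 3 higher (3.90% of all genes) and 1 lower (5.64% of all genes). MRPL23, near the exit of the peptide tunnel, read 10.31, 10.21 and 10.32 in HLY normoxia, 10.56, 10.46 and 10.66 in HLY hypoxia, 10.26, 10.59 and 10.53 in SUDHL2 normoxia and 10.72, 10.77 and 10.85 in SUDHL2 hypoxia. All hypoxia arrays of a label were above its normoxia arrays, with an average difference of 0.30 ± 0.09 or 1.23-fold (adjusted p 0.0448). The other calls rested mainly on 1 label. MRPL54 (0.32 ± 0.08, adjusted p 0.0292) differed by 0.66 ± 0.12 in HLY and -0.01 ± 0.12 in SUDHL2, and MRPS18A (0.36 ± 0.10, adjusted p 0.0347) differed in SUDHL2.

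MRPS25 was the single member called lower on average, by 0.48 on the log2 scale (-0.48 ± 0.08, adjusted p 0.00322), with opposite directions under the labels as given above. The median average response of the members was 0.10 beside 0.02 for all genes. Above 0 were 55 of 76 members, beside 5105 of all 9621 genes. The 3 higher calls were lost with median centring (0 called), where adjusted p-values of the 4 named genes were 0.231 to 0.449, and they numbered 0 to 9 as single arrays were left out, with 9 without the first SUDHL2 hypoxia array. MRPL10 (0.33 ± 0.10, adjusted p 0.0609) and MRPL58 (0.28 ± 0.09, adjusted p 0.0837), the latter a hydrolase that frees stalled ribosomes, had similar sizes without passing the test.

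**Figure D5:**
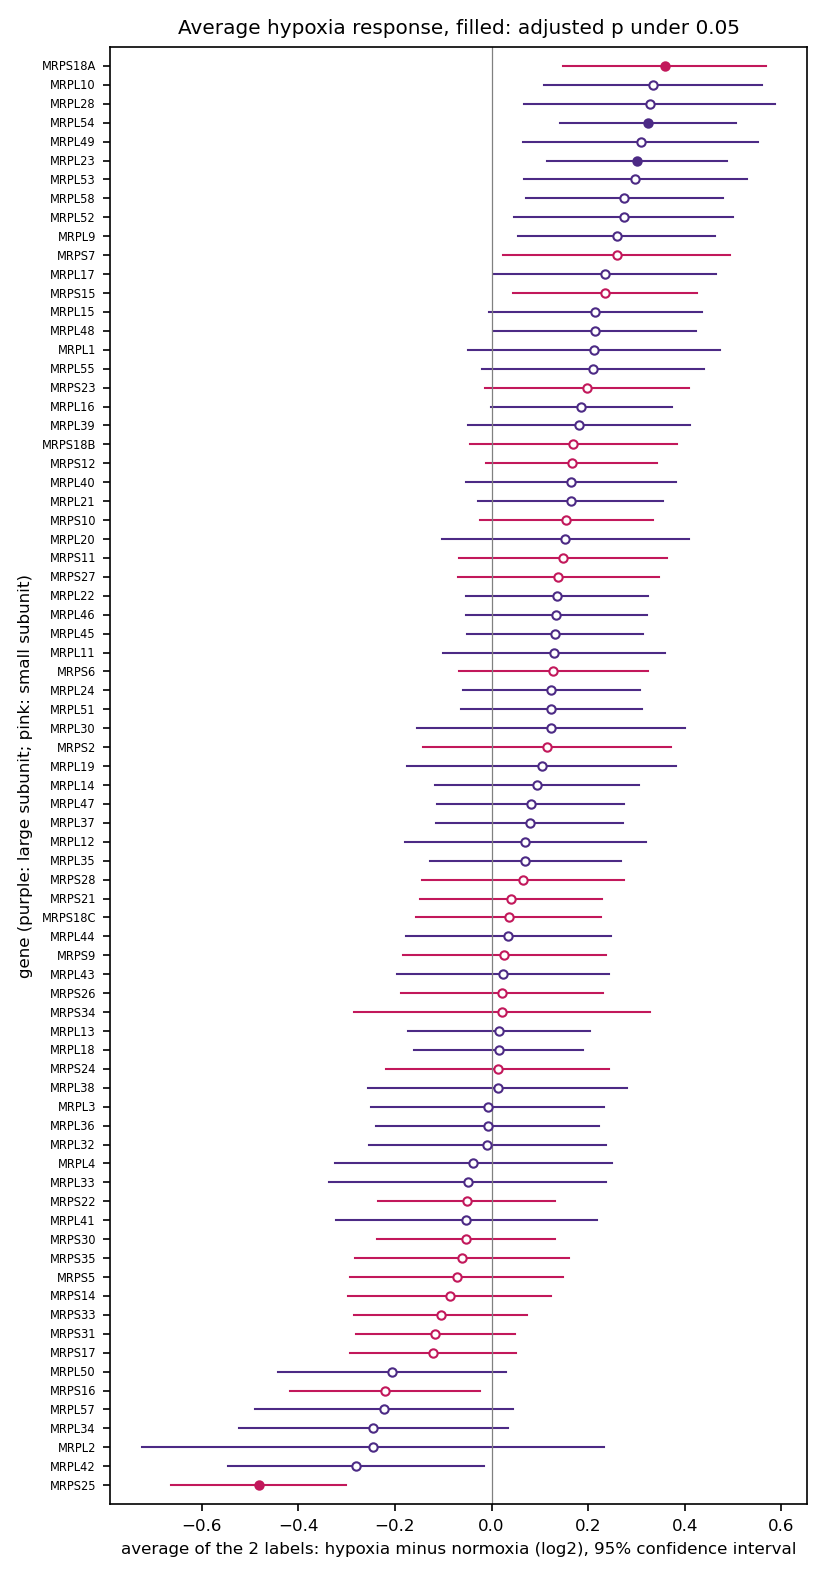
Average hypoxia response of each of the 76 members, hypoxia minus normoxia over both labels on the log2 scale, with lines for the 95% confidence interval and filled symbols for adjusted p under 0.05. MRPS18A, MRPL54 and MRPL23 are filled on the right and MRPS25 on the left, and the estimates run from -0.48 to 0.36; all 4 calls were lost with median centring.

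The arrays that resembled each other across labels were also compared directly, since these comparisons share no arrays. Between HLY hypoxia and SUDHL2 normoxia, 1 member of 76 was called and it was lower, against a background of 2.40% of all genes, 1.17% higher and 1.23% lower. This was MRPS16, the counterpart of bacterial S16, which read 9.01, 8.81 and 9.01 in HLY hypoxia and 9.81, 9.47 and 9.60 in SUDHL2 normoxia, a difference of -0.68 ± 0.13 (adjusted p 0.0116). The call was lost with median centring (-0.40, adjusted p 0.632), with the deposited scores (adjusted p 0.0521), without the second HLY hypoxia array (adjusted p 0.0535) and without the first SUDHL2 normoxia array (adjusted p 0.0551). In HLY normoxia it read 9.45, 9.59 and 9.33 and in SUDHL2 hypoxia 9.78, 9.67 and 9.65, so only HLY hypoxia stood below the other groups. MRPL41, at -0.20 ± 0.18, and MRPS2, at -0.01 ± 0.17, did not pass the test there, with 95% intervals of -0.58 to 0.19 and -0.37 to 0.36.

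Between SUDHL2 hypoxia and HLY normoxia 10 members were called (13.2%, against a background of 15.9% of all genes), with 6 higher in SUDHL2 hypoxia, all of the large subunit, and 4 lower, against 5.75% and 10.1% of all genes. MRPL49 was higher by 0.55 ± 0.16, MRPL58 by 0.52 ± 0.13, MRPL23 by 0.50 ± 0.12 and MRPL54 by 0.49 ± 0.12 (adjusted p 0.0146 to 0.0337). MRPL58 read 9.98, 9.59 and 9.57 in SUDHL2 hypoxia against 9.20, 9.12 and 9.25 in HLY normoxia, without overlap. The lower members were MRPS25 (-0.92 ± 0.12, adjusted p 4.20e-04), MRPL50 (-0.65 ± 0.16), MRPL57 (-0.59 ± 0.18) and MRPS31 (-0.44 ± 0.11). MRPL57, a protein of mitochondria only, read 7.55, 7.60 and 7.46 against 8.12, 8.43 and 7.82. No member was called in both comparisons across labels, where 0.229% of all genes were higher and 0.592% lower in both. A further 0.0312% and 0.0520% of all genes were called in opposite directions, so the absence is not particular to the members. With median centring 0 members were called in either direction between SUDHL2 hypoxia and HLY normoxia, with no share of all genes taken. The 6 higher calls became 0 when the second HLY normoxia array was left out and 11 without the first SUDHL2 hypoxia array.

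Genes with several probes gave a check within the arrays. For 22 members a further 26 probes were kept, and 21 of these had the sign of the brightest probe in HLY and 20 in SUDHL2. Where signs differed, MRPL20, MRPL22, MRPL30, MRPL33, MRPL35, MRPL45, MRPS18B and MRPS33 were concerned. Only for MRPS33 were both probes called in opposite directions: the brightest gave 0.30 in HLY and -0.51 in SUDHL2, and the other -0.83 and 0.84, although both are annotated to a single transcript record. With the mean of its probes, MRPS33 turned to -0.27 in HLY and 0.17 in SUDHL2, and its direction is uncertain. For MRPL20 the brightest probe gave -0.69 and the other 0.32 in HLY, the latter not called (adjusted p 0.0613).

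The rest of the mitochondrial translation system gave context, and the counts of each list stand against 65.5% of all genes called in HLY and 66.2% in SUDHL2. The cytosolic ribosomal proteins, 76 genes, had 15 called higher and 10 lower in HLY (32.9%) and 9 higher and 13 lower in SUDHL2 (28.9%), with medians of 0.08 and -0.02. Of 18 mitochondrial translation factors 16 were tested, with 2 higher and 2 lower in HLY and 7 higher and 4 lower in SUDHL2. TUFM, the elongation factor that brings transfer RNAs, differed by 0.93 ± 0.17 and -0.50 ± 0.17, and MTIF2, an initiation factor, by 0.66 ± 0.12 and -0.83 ± 0.12, opposite in sign to most of the ribosomal proteins. MTRF1, a release factor, differed by -1.68 ± 0.21 and 0.74 ± 0.21. All 6 of these differences were called. In the average response PDF (0.47) was called higher and MTIF3 (-0.37) lower. PDF was detected on only 1 of 3 SUDHL2 normoxia arrays, so its difference is partly measured against values near background.

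Of 31 genes of mitoribosome assembly and rRNA modification 28 were tested, with 6 higher and 8 lower in HLY and 9 higher and 8 lower in SUDHL2. RBFA, an assembly factor of the small subunit, differed by -2.03 ± 0.14 and 2.11 ± 0.14, and MRM3, a methyltransferase of the large rRNA, by -1.95 ± 0.19 and 2.54 ± 0.19, all called. Of 8 genes of mitochondrial transcription and replication, 4 were lower and 2 higher in HLY, and 4 higher and 2 lower in SUDHL2. TWNK, the mitochondrial DNA helicase, differed by -2.21 ± 0.17 and 2.32 ± 0.17, while TFAM, which packs mitochondrial DNA and starts its transcription, differed by 1.00 ± 0.15 and -1.05 ± 0.15. In the average response 2 of the 28 assembly genes were called, both higher, MRM2 at 0.29 and MTG1, for which no difference is given because no HLY normoxia array detected it. Among 5 mitoribosome proteins with other names, 3 were tested. CHCHD1 was the only gene of them called in HLY (1.14 ± 0.16) and in the average response (0.45, adjusted p 0.0255). Its average call rested on the HLY label, since in SUDHL2 it differed by -0.24 and was not called.

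Regulators of nuclear genes for mitochondria were 8 tested of 9 listed, with 4 higher and 1 lower in HLY and 1 higher and 3 lower in SUDHL2. PPARGC1A, a coactivator of mitochondrial biogenesis, read 7.48, 7.84 and 7.77 in HLY hypoxia and 7.68, 7.33 and 7.29 in SUDHL2 normoxia, and was not above background on any array of the other 2 groups. Against the detection limit it was at least 3.49-fold higher in HLY hypoxia (adjusted p 3.89e-10) and at least 2.73-fold lower in SUDHL2 hypoxia (adjusted p 6.86e-10). ESRRA, a nuclear receptor that works with it, had the reverse, -1.83 ± 0.16 and 1.81 ± 0.16. MYC differed by 0.78 ± 0.15 and -0.90 ± 0.15, and GABPB1, a subunit of the ETS factor GABP, by 0.54 ± 0.15 and -0.37 ± 0.15, all called. None of these 8 regulators was called in the average response, nor were the 8 genes of mitochondrial transcription and replication.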

How the data were processed

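Total RNA of 12 cultures, 3 biological replicates in each of 4 groups, was read on Illumina HumanHT-12 v4 BeadChips, and nothing in the sources used here says whether the replicates were grown apart, so p-values measure the spread between these arrays. The authors deposited raw probe intensity values with a detection p-value for each, exported with GenomeStudio 2011.1, and, in a second table, scores, which are z-scores of log10 intensity within each array. Their own selection columns were not used as results.

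From the intensities, background was corrected by normexp with the detection p-values, an offset of 16 was added and arrays were quantile-normalized on the log2 scale (neqc, limma 3.58.1, R 4.3.3). A probe was kept if 3 or more arrays detected it (p under 0.01), and a gene was read by its brightest kept probe. Of 16288 kept probes 12684 carried a symbol, which gave 9621 genes. A mean for each of the 4 groups was fitted (lmFit, then eBayes, on 8 residual degrees of freedom plus a prior of 5.71). Benjamini-Hochberg adjustment ran over all genes, with 0.05 as threshold. The contrasts were hypoxia against normoxia under each label, their average and difference, and the 2 comparisons of similar groups across labels. The script was tested on simulated data with known changes. Figures were drawn with matplotlib 3.10.9 under Python 3.11.15.

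The members, lists and tests were chosen with earlier results of these data known. Members named with values were MRPL41, MRPL43 and MRPS2, which the study names, up to 5 called members each way with the largest change in a response, up to 4 each way in a comparison across labels, the 3 with the smallest span, members of known role, and those whose probes differ in direction. MRPL46 and MRPS11 were added by position, and the genes named from the other lists for single labels were chosen after their values were seen. Alternatives were no background correction, median centring, the deposited scores, other probe and detection rules, trend and robust moderation, each label fitted alone, a replicate block, a selection rebuilt from the study's methods, and each array left out. Median centring took the median of each array over all 47230 probes, detected or not. For the alternatives only members were counted, so those counts have no share of all genes beside them. The number of arrays limits the precision.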

Additional observations from a re-analysis of the deposited data

Results flagged for a closer look

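The response to hypoxia differed between the labels by the test of the difference itself (limma's interaction contrast, SUDHL2 minus HLY, 3 arrays in each group). It was larger under the SUDHL2 label in 41 members and smaller in 14, against 37.1% and 36.6% of all genes. With median centring it was larger in 24 and smaller in 14, with no share of all genes taken. Among the members named in the report, the difference on the log2 scale was 4.43 for MRPL41, 3.996 for MRPL49, 3.88 for MRPL43, 3.69 for MRPS2, 2.59 for MRPS6 and 1.68 for MRPS25. It was -2.43 for MRPS9, -2.26 for MRPL42, -2.12 for MRPL13, -1.38 for MRPS24, -1.12 for MRPL48, -1.06 for MRPS31 and -1.03 for MRPL9. The adjusted p of MRPL41 was 7.51e-10 and that of MRPL9 1.93e-04. Of 10 B cell markers tested between the same groups of arrays, 3 were higher and 6 lower in HLY hypoxia, against 65.5% of all genes called in either direction. In SUDHL2 hypoxia 6 were higher and 4 lower, against 66.2% of all genes. The part of these markers in the differences above was not tested.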

How the results depend on the processing

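Of the members called, 23 of 45 in HLY and 33 of 50 in SUDHL2 kept their call and direction in all 21 alternatives, and 0 of 4 did so for the average response in 20. With median centring, which used all 47230 probes whether detected or not, the median difference of all genes was 0.287 in HLY, -0.0796 in SUDHL2 and 0.113 on average. With quantile normalization it was -0.00541, 0.0157 and 0.0154. Median centring gave 11 members lower in HLY, 4 lower in SUDHL2, 24 higher in the difference, and 0 higher and 0 lower in the average and in SUDHL2 hypoxia against HLY normoxia. It also gave levels of 0.0894 (large) and 0.0440 (small) in HLY hypoxia, 0.0112 and -0.0696 in HLY normoxia, and -0.116 (small) in SUDHL2 normoxia. The cause was not tested.

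A selection rebuilt here from the limits in the study's methods kept 0 members higher and 2 lower in HLY, MRPL41 and MRPL43, and 5 higher and 0 lower in SUDHL2. MRPS2, which the study also lists as lower in HLY, fell just short of the limit on the size of the change. For the average, no background correction gave 8 higher and the deposited scores 6. Replicate numbers did not pair the arrays (correlations of deviations -0.357 to 0.275, 3 of 18 over 0.1), and the replicate block left 1 higher. Without background correction the large subunit level in HLY hypoxia was -0.100, and with the scores -0.0785, with -0.0749 for the small subunit in SUDHL2 normoxia. MRPS33 by the mean of its probes was -0.27, 0.17 and, in the difference, 0.43.

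Between HLY hypoxia and SUDHL2 normoxia, 1 member was higher without background correction, with detection required on all arrays and with trend and robust moderation, and 0 were lower with median centring or the scores. Between SUDHL2 hypoxia and HLY normoxia the numbers higher were 13 without background correction, 11 with the scores, 11 with detection on all arrays and 12 with trend and robust moderation.

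With single arrays left out, members called ranged from 13 to 18 higher and 28 to 32 lower in HLY, 34 to 39 and 8 to 11 in SUDHL2, and 37 to 43 and 14 to 16 in the difference. The average had 0 to 9 higher and 1 lower, with 9 without SUDHL2 hypoxia 1, 1 without HLY hypoxia 1, HLY normoxia 3 or SUDHL2 normoxia 1 or 2, and 0 without HLY hypoxia 3, HLY normoxia 1 or 2 or SUDHL2 hypoxia 2 or 3. HLY hypoxia against SUDHL2 normoxia had 0 to 1 higher and 0 to 1 lower, with 0 lower without HLY hypoxia 2 or SUDHL2 normoxia 1. SUDHL2 hypoxia against HLY normoxia had 0 to 11 higher (11 without SUDHL2 hypoxia 1, 3 without HLY normoxia 3, 2 without SUDHL2 hypoxia 2 or 3, 1 without HLY normoxia 1 and 0 without HLY normoxia 2) and 1 to 4 lower (1 without HLY normoxia 2). Leaving out an array also changed the number of genes tested.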
